A study of Mus musculus with 6 samples.

Results

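The TRAF and death-domain adaptors are the signalling proteins that connect receptors of the TNF and IL-1 families to survival and death pathways. Traf1, Traf2, Traf3, Traf5, Traf6, Tradd, Fadd, Ripk1, Birc3 and Cflar were taken by gene symbol. All 10 were among the 16254 genes listed in the count table, and all 10 passed the filter on low counts, which left 13498 genes. They were followed in mouse eosinophils of the C57BL/6 genotype, differentiated from bone marrow with FLT3 ligand and stem cell factor and then with IL-5. In all, 3 cultures received extracellular vesicles (EVs) of activated TH2 cells, isolated by size exclusion chromatography, and 3 received sham treatment, which was unconditioned medium taken through the same isolation. The study's methods give 5e9 EVs per mL for viability assays on such eosinophils and do not restate a concentration for sequencing. Poly(A) RNA was sequenced after 24 h. The labels name the 3 samples of each group as biological replicates and give no further account of their source. Rested TH2 cell EVs, which the study also used, were not sequenced in these 6 samples, so the comparison is of activated TH2 cell EVs with sham only.

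TNF receptors carry no enzyme of their own. Those with a death domain bind TRADD, which brings in RIPK1 and TRAF2 with the ubiquitin ligase cIAP2 (encoded by Birc3), and ubiquitin chains built there start NF-κB and MAP kinase signalling. When RIPK1 and TRADD leave the receptor they can bind FADD, which gathers caspase-8. Cellular FLIP, encoded by Cflar, pairs with caspase-8 there and limits its activation. In resting cells TRAF3 and TRAF2 hold the kinase NIK (encoded by Map3k14) at a low level by bringing it to the cIAPs, and TRAF6 serves the IL-1 and Toll-like receptors. Eosinophils are short-lived cells that depend on survival cytokines, and TNF and CD40 are among the signals known to prolong their life.

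The libraries summed to between 23697620 and 37874426 estimated counts, and the EV-treated libraries were deeper than 2 of the 3 sham-treated ones. The quasi-likelihood test of edgeR was run on the 13498 genes, and 23.7% of them passed the threshold of 0.01 on the adjusted p, 12.1% as higher and 11.6% as lower with EV treatment (1632 and 1572 genes, which became 1036 and 2342 without TMM scaling). All 12 eosinophil markers were measured, and 8 rose and 0 fell. Their summed level was 30539 to 38468 CPM in sham-treated and 43565 to 48670 CPM in EV-treated cultures. CPM here are counts scaled to a common library total after each total was multiplied by its TMM factor. These factors were 1.04 to 1.06 in sham and 0.936 to 0.958 in EV samples, so CPM differences between the groups depend on this scaling. Other cell types also moved with treatment. Of 14 macrophage and monocyte markers, 9 fell and 2 rose, with summed levels of 1884 to 2433 CPM in sham and 2228 to 2438 CPM in EV samples. Of the 3 T cell markers that passed the filter, Cd28, named after its values were seen, fell from a mean of 559 to 42.4 normalized counts, while Cd3d (38.3 and 48.4) and Cd8a (62.9 and 52.2) did not pass the test. The summed level of the T cell list, most of it Cd28 in sham samples, was 12.5 to 31.1 CPM in sham and 4.27 to 5.61 CPM in EV samples. Sham replicate 1 had the lowest macrophage and monocyte sum among the sham-treated cultures. Of 9 neutrophil markers tested, 2 rose and 4 fell, and of 6 mast cell and basophil markers 4 rose and 0 fell. None of 6 dendritic cell and B cell markers passed the test, and among 8 stromal markers 1 rose and 1 fell. The median log2 fold change of these stromal markers was −1.06. The summed level of the stromal list was 592 to 901 CPM in sham and 379 to 565 CPM in EV samples. In bulk RNA a change in the number of cells of a type and a change in RNA per cell cannot be told apart. The part of these cell types in the values below was not tested. In its viability assays the study reports higher eosinophil survival and less apoptosis with EVs of activated T cells than without treatment. It gives no viability for the sequenced cultures, so sham-treated and EV-treated cultures may have differed in their share of dying cells. The part of such a difference in the values below was not tested either.

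Among the 10 adaptors, Traf3 and Traf5 rose with EV treatment, by 1.57-fold and 1.67-fold, and no member fell at the threshold of 0.01. The share of members called was 20%, against 23.7% of all genes tested, a share near that of genes at large. Without TMM scaling, Birc3 and Cflar were also called, as lower. The study's own calls further required a log2 fold change of at least 1 in either direction, and no member reached that minimum here. Levels are given as normalized counts, which are counts brought to a common library size with TMM scaling. The mean was higher in EV samples for 4 members and lower for 6 (without TMM scaling the value for Traf2 turned negative as well). The median log2 fold change of the members was −0.06, and that of all genes was −0.01. The median absolute log2 fold change was 0.19 for the members and 0.30 for all genes. The groups of 3 did not overlap for 5 members, 3 of them higher and 2 lower in EV samples, and groups did not overlap for 49.6% of all genes. The summed level of the 10 members, with TMM scaling, was 682 to 753 CPM in sham-treated and 741 to 753 CPM in EV-treated cultures.

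**Figure D1:**
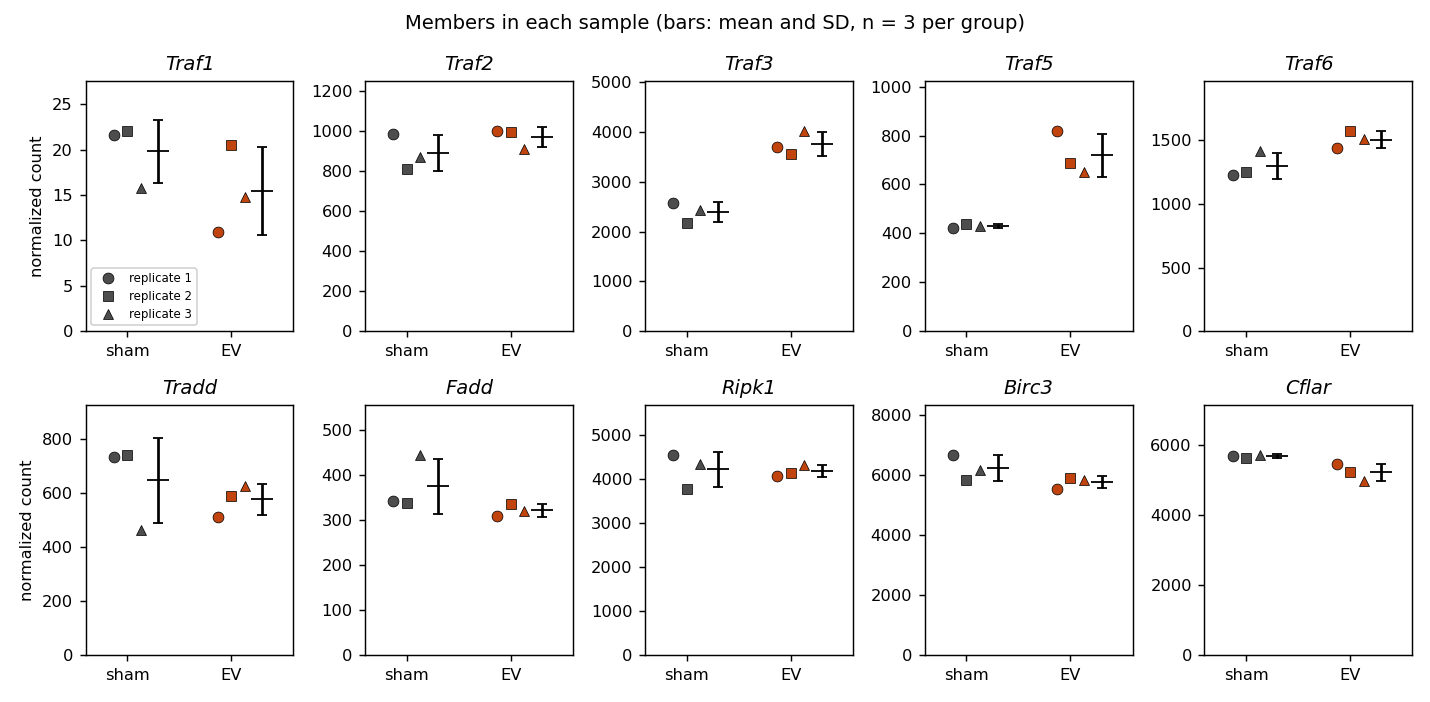
Normalized counts of the 10 members in each of the 6 samples (vertical axes start at 0 and differ between genes; points are replicates 1 to 3, bars are the mean and SD, n = 3 per group). The EV-treated points lie above all sham-treated points for Traf3, Traf5 and Traf6, below them for Fadd and Cflar, and overlap them for the other 5 members.

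The 10 genes are spread over 7 chromosomes in GRCm38. The TRAF genes other than Traf3 and Traf5 are all on chromosome 2, with Traf1 at chr2:34941750-34961772 and Traf2 at chr2:25517982-25546940 on the minus strand and Traf6 at chr2:101678429-101701669 on the plus strand. Of the death-domain genes, Tradd is at chr8:105258286-105264609 and Fadd at chr7:144577318-144582463, both on the minus strand, and Ripk1 is at chr13:34002363-34037147 on the plus strand. Birc3 is at chr9:7848699-7873186 on the minus strand, and Cflar shares chromosome 1 with Traf5, at chr1:58711508-58758884 on the plus strand.

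TRAF3 is an adaptor and ubiquitin ligase that restrains non-canonical NF-κB signalling and takes part in interferon responses. Traf3 had 2568, 2178 and 2433 normalized counts in sham replicates 1 to 3. In EV replicates 1 to 3 it had 3700.5, 3565 and 4021. Every EV-treated culture was above every sham-treated culture, and the gap between the groups was wider than the spread within either. The mean went from 2393 ± 198 (SD, n = 3) to 3762 ± 234 (SD, n = 3), for which the log2 fold change was 0.65 (SE 0.0794; 95% interval of the fold 1.39 to 1.78; adjusted p = 0.000132, edgeR quasi-likelihood test). The gene lies on the plus strand at chr12:111166370-111267153 (GRCm38), and its longest coding transcript has 12 exons. Another gene, 4930595D18Rik, overlaps it, and whether reads were counted by strand is not stated, but none of the 31-base words of Traf3 transcripts occur in another gene.

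TRAF5 is a close relative of TRAF2 that binds CD40, OX40 and other TNF receptors. Traf5 had 423, 439.97 and 431 normalized counts in sham replicates 1 to 3. It had 818, 686 and 653 in EV replicates 1 to 3. The sham-treated cultures were nearly equal and all lay below the lowest EV-treated culture, while the EV-treated cultures spread more widely, with replicate 1 the highest. The mean went from 431 ± 8.69 (SD, n = 3) to 719 ± 87.6 (SD, n = 3), for which the log2 fold change was 0.74 (SE 0.12; 95% interval of the fold 1.38 to 2.01; adjusted p = 0.000913, edgeR quasi-likelihood test). Traf5 is on the minus strand at chr1:191997205-192092559 (GRCm38), and 11.4% of its 31-base words occur in other genes. The overlapping Gm26879 had the most such matches of any single gene. Part of the Traf5 count therefore cannot be assigned to Traf5 with certainty. Both Traf3 and Traf5 stayed past the threshold in each of the 6 fits that left out 1 culture. Their log2 fold changes were 0.59 to 0.71 for Traf3 and 0.64 to 0.81 for Traf5. Without sham replicate 1, the sham-treated culture with the lowest macrophage and monocyte marker sum, the log2 fold changes were 0.71 for Traf3 and 0.73 for Traf5.

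The promoter windows of the 2 genes that rose are shown to set them against the family. Each runs from 250 bases before to 50 bases after the start site in RefSeq (GRCm38.p6) and is written 5′ to 3′ on the strand of the gene, with matches to the searched motifs in capitals. The Traf3 window is chr12:111166120-111166419 on the plus strand, and the Traf5 window is chr1:192092550-192092849 on the minus strand.
Traf3: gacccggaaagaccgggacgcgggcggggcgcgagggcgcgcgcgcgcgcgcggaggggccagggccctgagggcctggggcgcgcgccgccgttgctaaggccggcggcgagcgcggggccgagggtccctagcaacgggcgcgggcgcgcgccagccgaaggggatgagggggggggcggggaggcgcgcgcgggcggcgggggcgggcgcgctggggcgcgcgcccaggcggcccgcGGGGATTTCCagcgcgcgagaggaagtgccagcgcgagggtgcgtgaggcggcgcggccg
Traf5: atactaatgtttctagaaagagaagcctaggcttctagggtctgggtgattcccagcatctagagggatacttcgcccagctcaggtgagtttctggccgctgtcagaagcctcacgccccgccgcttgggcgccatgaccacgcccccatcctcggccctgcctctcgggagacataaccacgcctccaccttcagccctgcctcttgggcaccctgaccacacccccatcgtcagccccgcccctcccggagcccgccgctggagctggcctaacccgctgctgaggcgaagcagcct
The motifs searched on both strands were the NF-κB consensus and the STAT motif TTCNNNGAA, also with a spacer of 4 in place of 3 bases, and no matches overlapped each other in the windows of the members. RefSeq windows were found for 9 of the 10 members, and Ripk1 had 2, which made 10 windows. The NF-κB consensus matched 1 of the 10, the GGGGATTTCC at position -10 from the start site of Traf3, and 8.46% of all 32851 windows hold a match. TTCNNNGAA occurred in 1 member window, at positions -108 and -11 of a Ripk1 start site, and in 8.3% of all windows. The longer spacer occurred in 2 member windows, of Fadd and Ripk1, and in 6.95% of all windows. The Traf5 window holds none of the 3 motifs. The Traf3 window is 84% G or C and the Traf5 window 63.7%. A match here describes the letters only.

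The other 3 TRAF genes did not pass the test. TRAF2 is the adaptor that brings the cIAPs to TNF receptors, and Traf2 had 986, 811 and 866 normalized counts in sham and 998, 993 and 909 in EV replicates 1 to 3. The groups overlapped, with means of 888 ± 89.2 and 966 ± 50.1 (SD, n = 3 each) and a log2 fold change of 0.12 (SE 0.0985; adjusted p = 0.384, edgeR), which became −0.03 without TMM scaling. TRAF6, the adaptor of IL-1, IL-33 and Toll-like receptor signalling, came nearest to the threshold. Traf6 had 1229.9, 1246 and 1414 normalized counts in sham and 1437, 1571 and 1507 in EV replicates 1 to 3. All EV-treated cultures were above all sham-treated ones, but sham replicate 3 was close to EV replicate 1. Its log2 fold change was 0.22 (SE 0.0821; 95% interval of the fold 1.02 to 1.32) with an adjusted p of 0.0669 in edgeR, and the adjusted p ranged from 0.0211 to 0.564 over the alternatives.

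TRAF1 forms mixed trimers with TRAF2 and is known as a strongly inducible NF-κB target in lymphocytes. Here Traf1 was close to the limit of measurement, with estimated counts of 24, 18 and 13 in sham and 11, 24 and 17 in EV replicates 1 to 3, before scaling. The groups overlapped, and the normalized counts were 19.8 ± 3.50 in sham and 15.5 ± 4.82 in EV samples (SD, n = 3 each). The log2 fold change was −0.36 (SE 0.606; adjusted p = 0.694, edgeR), and the 95% interval of the fold ran from 0.306 to 2.00, so that a change within that range was not detectable at this depth.

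The death-domain members Tradd, Ripk1 and Fadd were not called in either direction. TRADD is the first adaptor at TNF receptor 1. Tradd had 734, 741 and 463 normalized counts in sham and 512, 591 and 626 in EV replicates 1 to 3. Sham replicate 3 was the lowest of all 6 and the other 2 sham-treated cultures were the highest, so the groups overlapped. The log2 fold change was −0.17 (SE 0.177; 95% interval of the fold 0.677 to 1.17; adjusted p = 0.509, edgeR), and Tradd had the widest spread among sham samples, a coefficient of variation of 24.6%.

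RIPK1 is the kinase that acts as a scaffold for survival signalling and can also start apoptosis and necroptosis. Ripk1 had 4560.1, 3779.6 and 4340.2 normalized counts in sham and 4076, 4148 and 4336 in EV replicates 1 to 3. All EV-treated values fell inside the range of the sham-treated values. The means were 4227 ± 402 and 4187 ± 134 (SD, n = 3 each), and the log2 fold change was −0.01 (SE 0.0767; adjusted p = 0.91, edgeR), with a 95% interval of the fold from 0.879 to 1.12. The overlapping gene Serpinb6a shares sequence with Ripk1, and 8.51% of the 31-base words of Ripk1 occur in other genes. The shares were 11.6% for Birc3, 9.35% for Cflar and 8.73% for Fadd, and at most 3.5% for the remaining members other than Traf5.

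FADD joins death receptors and the RIPK1 complex to caspase-8. Fadd had 343, 338 and 446 normalized counts in sham and 309, 336 and 321 in EV replicates 1 to 3. All EV-treated cultures were below all sham-treated ones, by a margin of 338 against 336 at the nearest pair, and sham replicate 3 stood above the rest. The log2 fold change was −0.22 (SE 0.153; 95% interval of the fold 0.676 to 1.09; adjusted p = 0.301, edgeR).

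The survival partners Birc3 and Cflar were among the members with the smallest differences. Birc3 encodes cIAP2, the ligase that ubiquitinates RIPK1. It had 6687, 5843 and 6185 normalized counts in sham and 5539.7, 5909 and 5855 in EV replicates 1 to 3. The groups overlapped, with a log2 fold change of −0.11 (SE 0.066; 95% interval of the fold 0.835 to 1.02; adjusted p = 0.217, edgeR). Cflar, which encodes cellular FLIP, had 5694, 5626 and 5717 normalized counts in sham and 5451, 5216 and 4981 in EV replicates 1 to 3. The sham-treated cultures were within a coefficient of variation of 0.826% of each other and all lay above the EV-treated cultures. The log2 fold change of Cflar was −0.12 (SE 0.0581; 95% interval of the fold 0.839 to 1.00; adjusted p = 0.132, edgeR). Scaling by library totals alone, which moved the median of all genes from −0.01 to −0.16, brought both genes past the threshold, with −0.26 for Birc3 (adjusted p = 0.00792, edgeR) and −0.27 for Cflar (adjusted p = 0.00533, edgeR) on the log2 scale. Relative to that median these values were −0.10 and −0.11. Of the 8 members that were not called, Traf1 had the widest 95% interval of the log2 fold change, from −1.71 to 0.998. Among the other 7, the limits furthest from 0 were −0.564 for Fadd and −0.562 for Tradd.

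**Figure D2:**
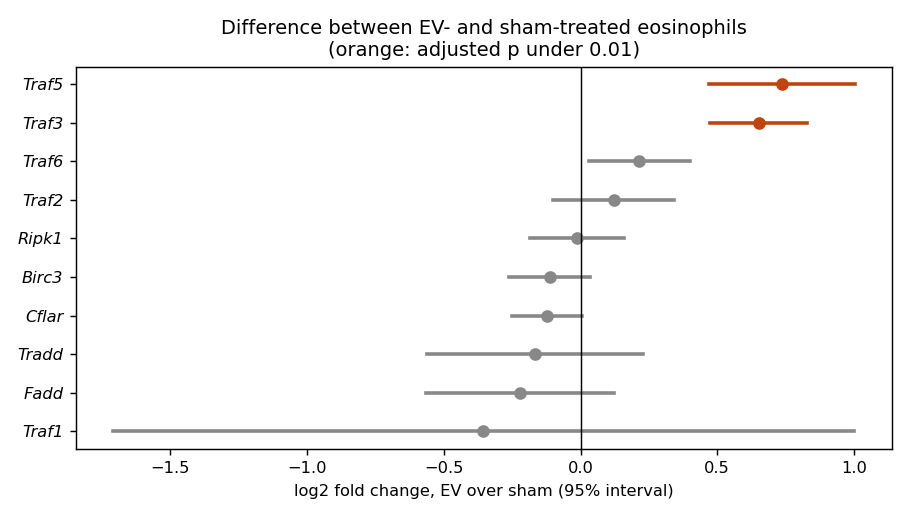
Log2 fold change of each member, EV over sham, with its 95% interval (horizontal axis, n = 3 per group; orange marks an adjusted p under 0.01). The intervals of Traf3 and Traf5 lie wholly above 0, that of Traf6 starts just above 0, and that of Traf1 is the widest.

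Levels were compared between genes per length, as CPM per kilobase of the longest coding transcript. Birc3 was the most abundant member in sham-treated eosinophils at 69.5 (lowest 65.1, highest 74.5), followed by Cflar at 28.0 (27.7 to 28.2) and Ripk1 at 21.2 (18.9 to 22.8), and these 3 did not overlap each other. Tradd at 12.4 (8.88 to 14.2), Traf3 at 10.99 (9.998 to 11.8) and Traf2 at 9.45 (8.64 to 10.5) overlapped each other. Traf5 at 7.12 (6.97 to 7.26) and Traf6 at 6.81 (6.46 to 7.43) also overlapped, while Fadd at 3.12 (2.81 to 3.70) was below both. Traf1 was lowest at 0.187 CPM per kilobase (0.149 to 0.208). In EV-treated eosinophils Traf3 reached 17.3 and Traf5 11.9, and both then stood above Tradd at 11.1 and Traf2 at 10.3 on the means, although the ranges of Traf5 and Tradd overlapped. The places of Birc3, Cflar and Ripk1 at the top and of Traf6, Fadd and Traf1 at the bottom were the same in both groups. With the median length of the coding transcripts in place of the longest, Traf5 took the 4th place in both groups, so the middle of the order depends on the transcript model. The levels of Birc3 and Cflar include any reads from the sequence that they share with other genes.

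**Figure D3:**
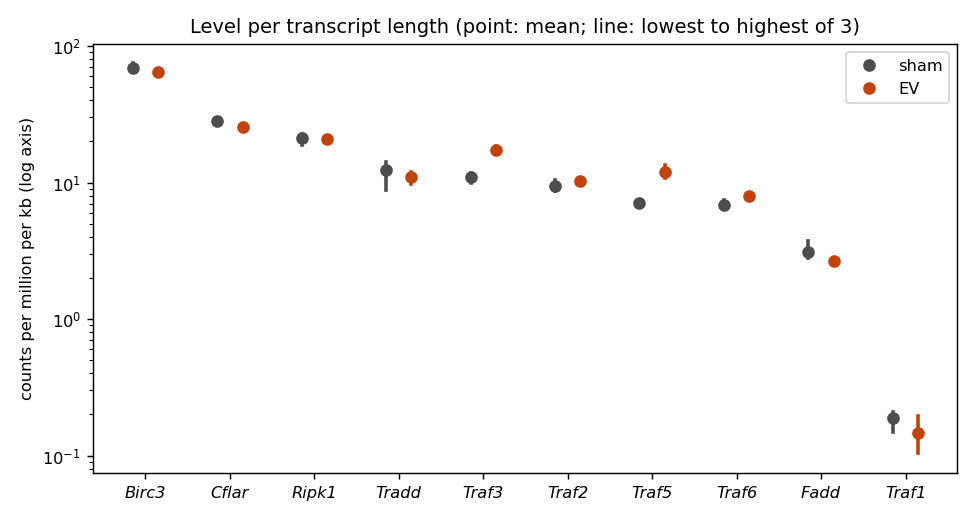
Level of each member per length, in CPM per kilobase of its longest coding transcript on a log axis, in sham-treated (grey) and EV-treated (orange) eosinophils (point: mean; line: lowest to highest of 3 samples). Birc3 is highest and Traf1 lowest in both groups, and the separation of grey and orange is clearest for Traf3 and Traf5.

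Because the adaptors work in pairs with other proteins, 5 ratios of normalized counts were taken within each sample. With 3 samples against 3, the smallest p that the exact two-sided permutation test can give is 0.1, so that no ratio could pass 0.05. The log2 ratio of Traf3 to Traf2, the pair that holds NIK low, was 1.38, 1.42 and 1.49 in sham and 1.89, 1.84 and 2.15 in EV replicates 1 to 3. The groups did not overlap, and the ratio was 1.44-fold higher in EV samples (log2 change 0.53; exact permutation p = 0.1, adjusted 0.167 over the 5 ratios).

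The remaining ratios were lower in EV samples on the means. Cflar to Casp8, the inhibitor against the caspase, had log2 ratios of 1.84, 1.73 and 2.00 in sham and 1.62, 1.5995 and 1.56 in EV replicates 1 to 3. These groups did not overlap, with a log2 change of −0.26 (exact permutation p = 0.1, adjusted 0.167). Ripk1 to Ripk3, the kinases of the necrosome, had log2 ratios of 3.56, 3.35 and 3.34 in sham and 3.08, 3.09 and 3.198 in EV replicates 1 to 3. They did not overlap either, with a log2 change of −0.30 (exact permutation p = 0.1, adjusted 0.167). Birc3 to Birc2, the inducible and the constitutive cIAP gene, went from 2.12 ± 0.177 to 1.85 ± 0.131 on the log2 scale (SD, n = 3 each; exact permutation p = 0.2, adjusted 0.2), and its groups overlapped. Traf1 to Traf2 went from −5.50 ± 0.289 to −6.01 ± 0.460 (SD, n = 3 each; exact permutation p = 0.2, adjusted 0.2), with overlap and with the low counts of Traf1 behind it. In 2 of these pairs the genes are neighbours, since Birc2 lies 11.6 kb from Birc3 and Casp8 lies 36.5 kb from Cflar, with 0 coding genes between them.

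**Figure D4:**
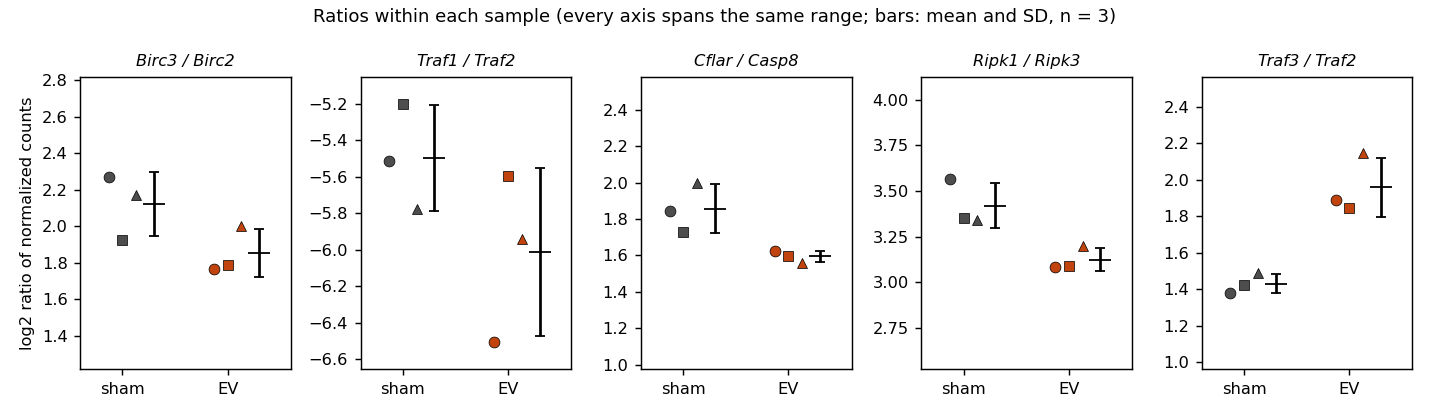
Log2 ratio of normalized counts within each sample for 5 pairs (points: samples, with shapes for replicates as in the plot of the members by sample; bars: mean and SD, n = 3 per group; every vertical axis spans the same range). Traf3 to Traf2 is higher in all EV-treated samples, and Cflar to Casp8 and Ripk1 to Ripk3 are lower in all of them.

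Around the members, 125 other genes of the pathway were tested in 7 lists. Of these 30 rose and 19 fell, or 39.2%, with a median log2 fold change of 0.13 and a median absolute value of 0.33. The called share was 20% for the members (2 of 10 genes) and 23.7% for all 13498 genes tested. Differences between these shares were not tested. Names and values beyond the 4 lowest adjusted p of a list and the direct partners of the members were chosen after their values were seen, so that most lists with few calls could be given in full.

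Among 15 other TRAF genes and TRAF-binding proteins, 2 rose and 4 fell (median log2 fold change −0.23). Tifa, which encodes a TRAF6-activating adaptor, fell from 248.5 ± 52.2 to 34.0 ± 7.04 normalized counts (SD, n = 3 each; log2 fold change −2.86, adjusted p = 2.24e-05, edgeR). Tbkbp1, Tnip2 and Tifab fell by 2.27, 1.36 and 1.27 on the log2 scale. Trafd1, a restraint on TRAF6 signalling, rose by 0.41 and Traf7 by 0.37 on that scale. Traf4, the remaining TRAF, had 55.4 ± 33.8 normalized counts in sham and 155 ± 15.4 in EV samples (SD, n = 3 each), with an adjusted p of 0.0277 that missed the threshold of 0.01.

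Of 16 other death-domain and death-effector adaptors tested, 2 rose and 1 fell (median 0.10). Cradd, the adaptor of caspase-2, rose by 0.73 and Madd, a binding partner of TNF receptor 1, by 0.36 on the log2 scale, and Dedd2 fell by 0.63. Among 18 ubiquitin ligases, deubiquitinases and their partners, 6 rose and 2 fell (median 0.18). The genes that rose included Ube2d3 (log2 fold change 0.44), Ubash3b (0.45), Cyld (0.39), which removes the ubiquitin chains of RIPK1, and Xiap (0.39), the caspase inhibitor. Usp2 fell by 1.24 and Htra2 by 0.89. Both Birc2, which encodes cIAP1 (log2 fold change 0.16, adjusted p = 0.178), and Tnfaip3, which encodes A20 (0.26, adjusted p = 0.0316), missed the threshold in edgeR.

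The receptors that engage these adaptors moved in both directions. Of 21 tested, 5 rose and 5 fell (median 0.18). Tnfrsf1a, which encodes TNF receptor 1, fell from 1206 ± 266 to 561 ± 41.8 normalized counts (SD, n = 3 each; log2 fold change −1.10, adjusted p = 0.000324, edgeR). Tnfrsf11a (RANK), Ltbr, Tnfrsf1b (TNF receptor 2) and Tnfrsf12a fell by 3.59, 1.51, 1.43 and 1.38 on the log2 scale. Il1rl1, the IL-33 receptor chain that signals through MyD88 and TRAF6, rose from 3071 ± 171 to 13388.5 ± 746 normalized counts (SD, n = 3 each; log2 fold change 2.12, adjusted p = 2.87e-08, edgeR). Relt, Tnfrsf18 (GITR), Tnfrsf13b (TACI) and Cd40 rose by 2.01, 1.75, 1.07 and 0.90. These receptor levels were measured in cultures where 9 of 14 macrophage and monocyte markers fell and 2 rose. Of 6 mast cell and basophil markers, 4 rose and 0 fell. The part of those cells in the receptor values, whether higher or lower, was not tested.

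Downstream of the adaptors, 5 of 23 kinases and their partners rose and 3 fell (median 0.13). Map3k14, which encodes NIK, the kinase that TRAF3 targets, rose from 826 ± 180 to 1572 ± 63.8 normalized counts (SD, n = 3 each; log2 fold change 0.92, adjusted p = 0.000492, edgeR). Map2k4 rose by 1.04, Mapk14 (p38α) by 0.53, and Tab2 and Tab3, partners of the kinase TAK1, by 0.41 and 0.44 on the log2 scale. Map3k1 fell by 0.82, Ikbke by 0.50 and Ikbkg (NEMO) by 0.33.

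Of 10 caspase-8 and necroptosis genes, 3 rose and 0 fell (median 0.21). Zbp1, a nucleic acid sensor that binds RIPK3, rose from 44.8 ± 31.2 to 1049 ± 39.8 normalized counts (SD, n = 3 each; log2 fold change 4.49, adjusted p = 9.31e-06, edgeR). Bid, which encodes a substrate of caspase-8, rose by 0.70 on the log2 scale. The direct partners Casp8, Ripk3 and Mlkl did not pass in edgeR, at log2 fold changes of 0.13 (adjusted p = 0.219), 0.28 (adjusted p = 0.0975) and 0.11 (adjusted p = 0.521). Among 22 NF-κB target genes, 7 rose and 4 fell (median 0.08). Ier3 rose by 2.27, Bcl3 by 1.00, Tnf by 0.93, Nfkbie by 0.90, Nfkbiz by 0.81, and Nfkb1 and Plek by 0.29 each on the log2 scale, and Gadd45b, Rel, Cxcl2 and Nfkbia, which encodes the inhibitor IκBα, fell by 0.87, 0.49, 0.37 and 0.32. Birc3, Cflar and Traf1, which are themselves known NF-κB targets, were not called. For Traf1 the estimated counts were only 11 to 24 per library, and without TMM scaling Birc3 and Cflar were called lower.

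**Figure D5:**
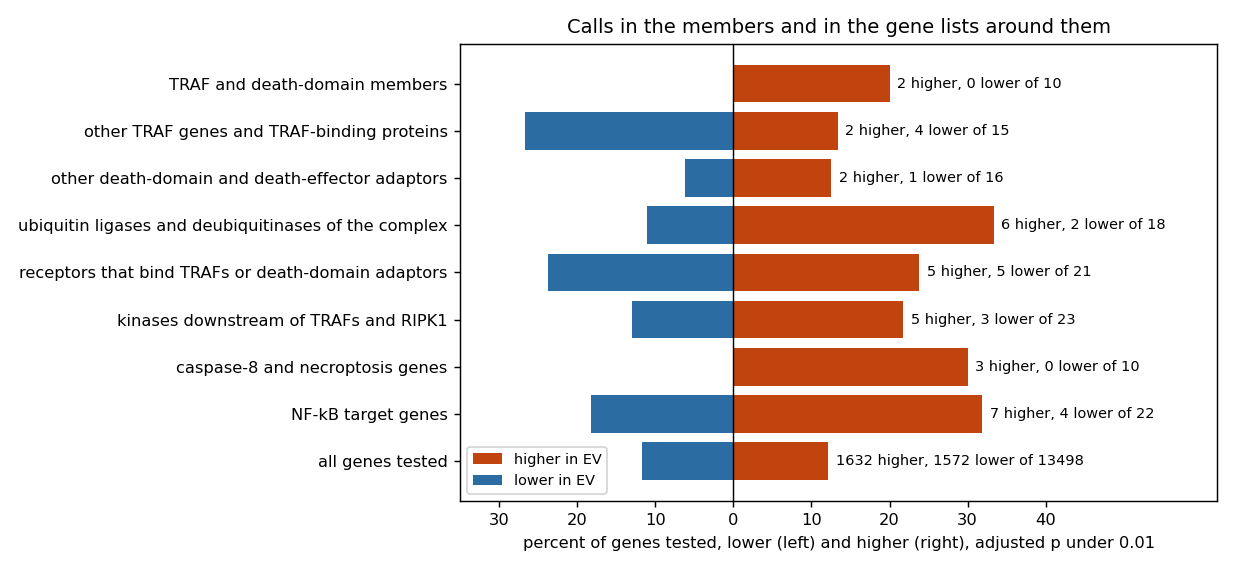
Percent of the tested genes of each list called lower (left) or higher (right) with EV treatment at the threshold of 0.01, with the numbers beside the bars. The members show 2 of 10 higher and 0 lower, and the bottom bar gives all 13498 genes tested.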

How the data were processed

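The authors used FastQC for read quality, Cutadapt for trimming, Salmon for quantification and DESeq2 for the comparison. The submitters' processing notes name the build mm10. Tool versions, the annotation and the strand setting are not given in the sources used here. The authors deposited estimated counts for 16254 genes, of which 40.2% of the values were not whole numbers. A deposited table of normalized counts, whose values are a signal of at least 0, served 1 alternative. Their comparison table holds fold changes, standard errors, test statistics and p-values and was not used. The counts summed to 23697620 to 37874426 per sample. The parts of sequencing depth and of the spread between cultures in the precision were not tested.

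Estimated counts were rounded, filtered with filterByExpr, scaled by TMM and tested with edgeR 4.0.16 in R 4.3.3 (quasi-likelihood test, all 6 samples, no covariate, Benjamini-Hochberg over 13498 genes, threshold 0.01). Standard errors are the log2 fold change over the square root of F, and intervals are 95%. The 5 ratios were compared by exact permutation. Groups came from the sample titles. Alternatives were RLE scaling, no TMM, no filter, DESeq2 1.42.0, limma 3.58.1 on the deposited table (log2 scale, pseudocount 1), the replicate number as a block, an adjusted p of 0.05, a log2 fold minimum of 1, and leaving out each sample. The scripts were tested on simulated data. Gene models are GENCODE vM21 (GRCm38), and promoter windows are from RefSeq.

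The members and gene lists were chosen with earlier results of these data known. Genes named are all members, direct partners of the members, and from each list the up to 4 genes with the lowest adjusted p under 0.01, with further genes chosen after their values were seen. The values of 1 gene under this rule are not reported here.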

Additional observations from a re-analysis of the deposited data

How the results depend on the processing

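Of 120 alternative values of the members' log2 fold changes, 113 kept their direction and side of the threshold, 2 newly passed it (Birc3 and Cflar without TMM) and 5 turned sign, all in genes near 0. These were Traf2 at −0.026 without TMM, and Ripk1 at 0.0019 without a filter and in 3 of the fits that left out 1 culture, over which it ranged from −0.088 to 0.051. The counts of members were 2 higher and 0 lower in every alternative, except 2 lower without TMM and 0 higher with a log2 fold minimum of 1. Without TMM, 1036 of all genes were higher and 2342 lower. With the threshold at 0.05, 2478 of all genes were lower, and with the fold minimum 419 were higher and 857 lower. Leaving out 1 culture gave 1071 to 1833 higher and 1018 to 1698 lower genes. The lowest counts came without EV replicate 3 (1071 higher, 1018 lower), and 1044 were lower without EV replicate 2. Fewer samples entered these fits. With the replicate number as a replicate block, 1794 genes were higher and 1781 lower, the members stayed at 2 and 0, and the adjusted p was 3.67e-06 for Traf3 and 0.000308 for Traf5. Deviations of same-numbered samples correlated weakly and positively across 13498 genes, at 0.12, 0.08 and 0.04 for numbers 1 to 3. Numbers 1 and 2 correlated best with their own number, and number 3 did not. These values do not settle whether the samples were paired. The main fit used no covariate because the labels do not say what a shared number stands for. The 5 ratios kept their direction in every alternative. Traf1 had the fewest counts of the members, at 11 to 24 per library, and the limit that depth sets on the other members was not tested.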
